A study of Mus musculus with 6 samples.

Results

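The complement components and anaphylatoxin receptors described here are 9 of the 46078 genes counted in chronic stroke infarcts and contralateral cortices. They were taken by gene symbol and comprise the chains of C1q (*C1qa*, *C1qb* and *C1qc*), the C1 proteases (*C1ra* and *C1s1*), the components *C4b* and *C3*, and the receptors *C3ar1* and *C5ar1*. RNA-Seq was performed on 3 infarcts and 3 equivalent regions of the contralateral cortex, dissected by eye from male wild type C57BL/6J mice with an age of 3 months in the sample records. Stroke was induced by occlusion of the distal middle cerebral artery combined with hypoxia, and tissue was collected 7 weeks later after perfusion with saline. The contralateral cortex comes from a brain that had a stroke, so neither region is naive tissue. The sample records neither link an infarct to the contralateral cortex of its own mouse nor say that the 3 libraries of a region came from separate mice, so *p* values measure the spread between these samples.

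Complement is a proteolytic cascade of innate immunity. C1q binds antibody complexes, debris or synapses and activates the proteases C1r and C1s, which cleave C4 and C2 to form an enzyme that splits C3. The C3 fragments coat targets for uptake by phagocytes, and the small fragments C3a and C5a, the anaphylatoxins, signal through receptors on myeloid cells. In the brain, microglia are a main source of C1q, and the early components are known for marking synapses for removal.

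All 9 genes were upregulated in infarcts, by between 4.32 and 9.93 on the log2 scale. The C1q chains, expressed at a moderate level in the contralateral cortex, rose the least, and *C3*, which was barely detected there, rose the most. A gene counted as upregulated when its Benjamini-Hochberg adjusted *p* from the quasi-likelihood test of edgeR was under 0.05 and its log2 fold change over 1. By this rule 25.7% of the 15554 tested genes were higher in infarcts and 20.9% were lower. For each of the 9 genes, the 3 infarct values lay above the 3 contralateral values, as they did for 37.6% of the tested genes. The median log2 fold change was 5.47 over the 9 genes and 0.03 over all tested genes.

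The libraries held between 11943570 and 19933962 counts on genes. Values below are CPM (counts scaled to a common library size) after TMM, a scaling that sets the bulk of genes equal between libraries. Infarct libraries correlated with each other at 0.961 to 0.976 (Pearson, log2 CPM across genes, which are not independent replicates), contralateral libraries at 0.988 to 0.991, and libraries of different regions at 0.689 to 0.802. The neuronal marker list, 12 genes of which all 12 were lower in infarcts, summed to 910 CPM in infarct 1, 1252 in infarct 2 and 2607 in infarct 3, against 12626 to 13366 CPM in contralateral cortices. In bulk tissue, fewer cells of a type and less RNA per cell cannot be told apart.

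Because the 9 genes moved together, the stretches in front of their start sites are shown for the 4 genes whose stretch holds at most 4 bases of annotated exon. RefSeq start sites were matched for 7 of the 9 genes, and each sequence is the 250 bases before the start on the gene's own strand, which is the minus strand in all 4 (GRCm38.p6). They lie at chr4:136886201-136886450 (*C1qb*), chr6:124542360-124542609 (*C1s1*), chr17:57228137-57228386 (*C3*) and chr6:122856158-122856407 (*C3ar1*). Capitals mark matches to the C/EBP letters TTGCNNAA on either strand.
C1qb: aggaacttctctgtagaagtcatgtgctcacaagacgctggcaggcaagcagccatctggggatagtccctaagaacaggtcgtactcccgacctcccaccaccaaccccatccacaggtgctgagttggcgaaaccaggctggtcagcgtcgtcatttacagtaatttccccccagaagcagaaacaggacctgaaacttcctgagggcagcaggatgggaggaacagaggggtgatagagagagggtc
C1s1: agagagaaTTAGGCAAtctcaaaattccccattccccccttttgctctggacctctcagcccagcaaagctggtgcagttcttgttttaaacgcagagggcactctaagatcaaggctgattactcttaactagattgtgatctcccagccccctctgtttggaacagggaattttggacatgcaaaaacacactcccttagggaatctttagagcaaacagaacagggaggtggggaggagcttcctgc
C3: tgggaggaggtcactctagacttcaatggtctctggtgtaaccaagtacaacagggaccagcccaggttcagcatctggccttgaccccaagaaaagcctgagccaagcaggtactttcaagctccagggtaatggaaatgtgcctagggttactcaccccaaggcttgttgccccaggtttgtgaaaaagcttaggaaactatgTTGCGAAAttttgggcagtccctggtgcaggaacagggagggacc
C3ar1: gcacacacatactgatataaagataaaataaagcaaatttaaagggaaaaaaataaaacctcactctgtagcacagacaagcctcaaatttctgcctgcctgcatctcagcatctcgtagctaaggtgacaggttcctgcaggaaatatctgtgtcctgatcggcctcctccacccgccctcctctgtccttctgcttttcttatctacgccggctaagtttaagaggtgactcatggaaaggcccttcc
The *C3* match lies at positions -45 to -38 from the start and the *C1s1* match at -242 to -235. The stretch of another RefSeq start of *C1s1* (chr6:124542322-124542571, with 38 bases of annotated exon) held no such match. The *C1s1* match thus depends on the start used. The stretches of *C1qb* and *C3ar1* held no match to any of the 4 motifs searched on both strands, which were the PU.1 core GAGGAAG, the GAS element TTCNNNGAA, the C/EBP letters and NF-kB by name. Among 32851 RefSeq stretches of the same length, 10.6% held the PU.1 core, 7.02% the GAS element, 9.56% the C/EBP letters and 7.25% the NF-kB motif. Of the stretches not shown, that of *C1qc*, with 151 bases of annotated exon, held the PU.1 core at -194 to -188. It also held the NF-kB motif at -41 to -32, and the stretches of *C1ra* and *C5ar1* held no match. A match is a description of letters and not of binding.

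*C1qa*, *C1qb* and *C1qc* encode the chains that assemble into C1q, the recognition protein of the classical pathway. They lie next to each other on the minus strand of chromosome 4 (GRCm38, as all positions here), with *C1qb* (ENSMUSG00000036905) at 136880129 to 136886187, *C1qc* (ENSMUSG00000036896) at 136889804 to 136893065 and *C1qa* (ENSMUSG00000036887) at 136895917 to 136898803. *C1qa* had 369, 326 and 283 CPM in infarcts 1, 2 and 3, and 16.5, 10.3 and 16.6 CPM in contralateral cortices 1, 2 and 3. The lowest infarct stood far above the highest contralateral cortex, and the log2 fold change was 4.49 (SE 0.20, adjusted *p* = 3.52e-07).

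*C1qb* had 474, 453 and 336 CPM in infarcts against 16.4, 13.2 and 16.6 CPM in contralateral cortices. The groups did not overlap, and the log2 fold change was 4.77 (SE 0.18, adjusted *p* = 1.79e-07), or 27.3-fold. *C1qc* had 475, 380 and 350 CPM in infarcts against 21.4, 14.8 and 24.3 CPM in contralateral cortices. It was the least changed of the 9 genes, with a log2 fold change of 4.32 (SE 0.21, adjusted *p* = 4.26e-07). For all 3 chains infarct 1 was the highest library, and contralateral cortex 2 was the lowest.

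**Figure D1:**
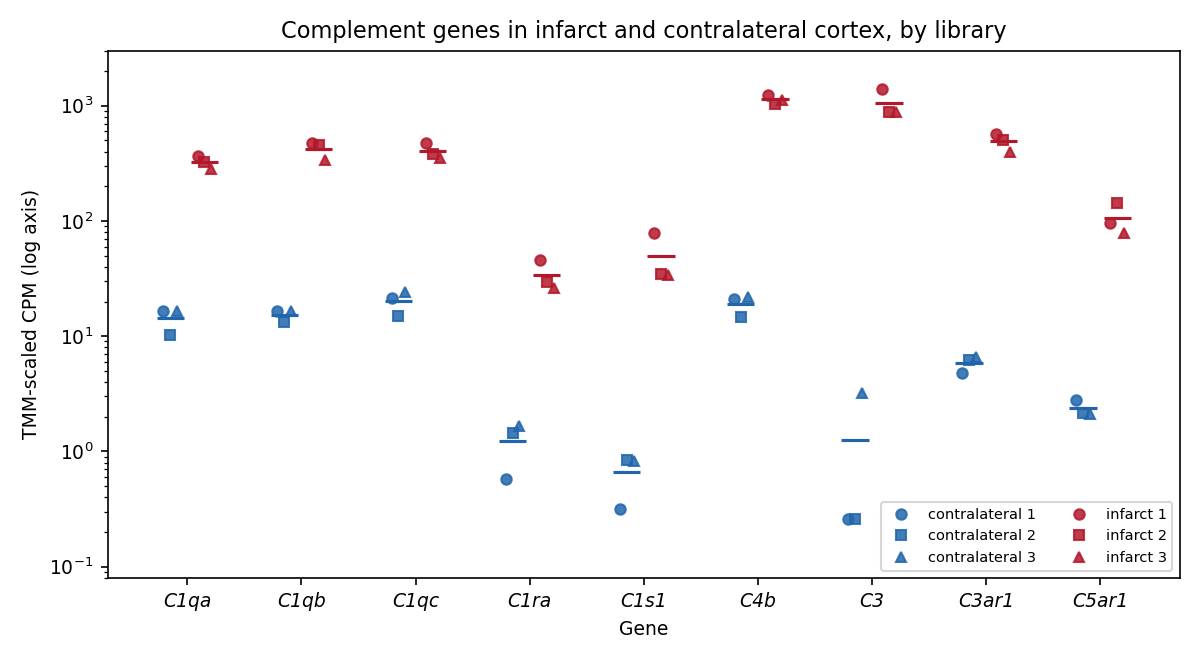
TMM-scaled CPM (log axis) of each of the 9 complement genes, with 1 point per library for 3 infarcts (red) and 3 contralateral cortices (blue) and a line at each group mean. The groups do not overlap for any gene, and contralateral cortex 3 stands apart for *C3* at 3.23 CPM against 0.261 and 0.260 CPM.

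The share of each chain in the summed C1q counts of a library shows their balance without any scaling between libraries. *C1qa* made up 28.4% ± 0.666 (SD, n = 3) of C1q counts in infarcts and 28.7% ± 1.77 in contralateral cortices, and its groups overlapped. *C1qb* made up 34.7% to 39.1% in infarcts and 28.9% to 34.5% in contralateral cortices, so the groups did not overlap but came within their counting error. The highest contralateral share, 34.5% in library 2, had a 95% Wilson interval of 30.7% to 38.4% on 589 C1q counts. *C1qc* made up 32.8% to 36.1% in infarcts and 38.7% to 42.2% contralaterally, again without overlap but within counting error at the nearest values. The lowest contralateral share, 38.7% in library 2, had an interval of 34.9% to 42.7%, which takes in the highest infarct share. The shares were not tested, and their intervals cover counting error only.

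*C1ra* and *C1s1* encode the mouse C1r and C1s proteases that C1q activates, and they are neighbors on chromosome 6, *C1ra* (ENSMUSG00000055172) at 124512405 to 124523443 on the plus strand and *C1s1* (ENSMUSG00000038521) at 124530345 to 124542359 on the minus strand. *C1ra* had 46.3, 29.4 and 26.2 CPM in infarcts, and 0.575, 1.43 and 1.66 CPM in contralateral cortices, where it was read from 11, 22 and 18 counts. Infarct 1 was the highest library, and the log2 fold change was 4.85 (SE 0.38, adjusted *p* = 6.67e-06).

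*C1s1* had 79.0, 34.9 and 33.9 CPM in infarcts against 0.313, 0.846 and 0.831 CPM contralaterally, from 6, 13 and 9 counts. It also peaked in infarct 1, at more than the level of both other infarcts together, and its log2 fold change was 6.26 (SE 0.54, adjusted *p* = 1.89e-05). The paralog *C1rb* had at most 2 counts in any library, and *C1s2* had 1, 3 and 3 counts in infarcts and 16, 1 and 0 in contralateral cortices. Of the distinct 75-base stretches of *C1ra* transcripts, 42.4% also occur in other genes, mainly *C1rb*, as do 24.8% of those of *C1s1*. Reads that align to several places were left out of the counts, and the size of this loss was not tested. *Gm16567*, a gene on the opposite strand, overlaps 18.4% of the exon bases of *C1s1*, and the strand setting of the counting is not given in the sources used here.

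*C4b* (ENSMUSG00000073418) encodes C4, the component that C1s cleaves first, and lies on the minus strand of chromosome 17 at 34728380 to 34743882. It had 1247, 1045 and 1113 CPM in infarcts against 20.9, 14.6 and 22.0 CPM contralaterally. Its infarct libraries varied little, and the log2 fold change was 5.89 (SE 0.19, adjusted *p* = 1.64e-07), or 59.3-fold. Its near copy *C4a* had 2, 14 and 12 counts in infarcts and 21, 6 and 3 in contralateral cortices, with overlapping groups and a log2 fold change of 0.12 that did not pass the test (SE 0.71, adjusted *p* = 0.894) and changed sign without infarct 2 (-0.28) and without 3 other libraries. Of the 75-base stretches of *C4b*, 22.7% also occur in *C4a*.

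*C3* (ENSMUSG00000024164) encodes the central component on which all activation routes converge, and lies on the minus strand of chromosome 17 at 57203970 to 57228136. It had 1390, 886 and 891 CPM in infarcts, from 17447, 12062 and 13051 counts. In contralateral cortices it had 0.261, 0.260 and 3.23 CPM, from 5, 4 and 35 counts. Contralateral cortex 3 was therefore far above the other contralateral libraries and still far below every infarct.

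The log2 fold change of *C3* was 9.93 (SE 0.82, adjusted *p* = 1.46e-04), which ranked 32 among the 15554 tested genes. Leaving out contralateral cortex 3 gave 11.94 and leaving out contralateral cortex 1 gave 9.33, and the gene was upregulated in every such fit. In contralateral cortex 3, *Igkc* had 9.14 CPM against 0.418 and 0.456 in the other contralateral cortices. *Gpnmb* had 8.77 against 2.77 and 3.00 CPM, and *Cd5l*, from 8 counts, 0.738 against 0 and 0.0651 CPM. Not all macrophage markers peaked there, since *Mrc1* had 16.7, 13.9 and 12.7 CPM and *Cd68* 2.46, 1.43 and 1.94 CPM in contralateral cortices 1, 2 and 3. In the same order, the macrophage markers described below summed to 71.7, 58.9 and 80.4 CPM. The B cell and plasma cell markers summed to 9.98, 14.8 and 29.4 CPM. Over the 3999 genes higher in infarcts, the highest contralateral value fell in library 1 for 38.1%, in library 2 for 25.8% and in library 3 for 36.2%. The part of these differences between contralateral libraries in the *C3* value was not tested.

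*C3ar1* (ENSMUSG00000040552) encodes the receptor for C3a and lies on the minus strand of chromosome 6 at 122847138 to 122856161. It had 571, 507 and 400 CPM in infarcts against 4.75, 6.19 and 6.64 CPM contralaterally. The spread within each region was small beside the distance between them, and the log2 fold change was 6.40 (SE 0.19, adjusted *p* = 1.64e-07), or 84.5-fold. By *p*, *C3ar1* ranked 18 among the 3999 genes higher in infarcts, ahead of the other 8 complement genes.

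*C5ar1* (ENSMUSG00000049130) encodes the receptor for C5a, which attracts neutrophils and macrophages, and lies on the minus strand of chromosome 7 at 16246743 to 16259540. It had 96.1, 144 and 77.9 CPM in infarcts against 2.82, 2.15 and 2.12 CPM contralaterally. It was the only one of the 9 genes with its highest value in infarct 2, and its log2 fold change was 5.47 (SE 0.26, adjusted *p* = 4.07e-07). *C5ar2*, its neighbor on chromosome 7 and another C5a receptor, had 7.20 ± 0.927 CPM (SD, n = 3) in infarcts and 0.545 ± 0.159 CPM contralaterally, for a log2 fold change of 3.65 (SE 0.34, adjusted *p* = 8.48e-06).

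To compare levels between genes, CPM were divided by the kilobases of annotated exon. In infarcts the order was *C1qb* (387 ± 68.3 CPM per kb, SD, n = 3), *C1qa* (313 ± 41.2), *C1qc* (208 ± 33.8), *C3* (205 ± 56.3), *C4b* (199 ± 18.0), *C3ar1* (114 ± 20.0), *C5ar1* (41.3 ± 13.3), *C1s1* (15.7 ± 8.24) and *C1ra* (11.4 ± 3.61). The values of *C1qb* and *C1qa* overlapped, as did those of *C1qc* and *C3*, of *C3* and *C4b*, and of *C1s1* and *C1ra*. Within a library, *C1qb* nevertheless stood above *C1qa*, and *C1s1* above *C1ra*, in 3 of 3 infarcts. *C1qc* stood above *C3* in 2 of 3 and *C3* above *C4b* in 1 of 3.

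In contralateral cortices the chains also came first, with *C1qb* at 14.2 ± 1.75 CPM per kb, *C1qa* at 13.9 ± 3.47 and *C1qc* at 10.4 ± 2.5. *C4b* followed at 3.36 ± 0.700, *C3ar1* at 1.36 ± 0.229 and *C5ar1* at 0.920 ± 0.154. The lowest were *C1ra* (0.410 ± 0.192), *C3* (0.243 ± 0.333) and *C1s1* (0.212 ± 0.0969). The chains *C1qb* and *C1qa* overlapped, as did *C1qa* and *C1qc*, *C1ra* and *C3*, and *C3* and *C1s1*. *C3* thus stood near the bottom of the order in contralateral cortices and in its middle in infarcts.

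Ratios of CPM within a library, with 0.5 added to each CPM, depend little on the scaling between libraries and were compared for 5 pairs. With 3 against 3 libraries the exact two-sided permutation test cannot give a *p* under 0.1, so none could pass. The log2 ratio of *C3* to *C3ar1* was 1.28, 0.80 and 1.15 in infarcts and -2.79, -3.14 and -0.94 in contralateral cortices. The ligand's transcript was thus above the receptor's in every infarct and below it in every contralateral cortex, a difference of 3.37 between the means (exact *p* = 0.1, adjusted *p* = 0.125 over 5 ratios) that was 4.04 without contralateral cortex 3 and 2.46 when 2 was added instead of 0.5.

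The log2 ratio of *C3* to *C4b* was 0.16, -0.24 and -0.32 in infarcts and -4.81, -4.31 and -2.59 in contralateral cortices. The difference was 3.77 (exact *p* = 0.1, adjusted *p* = 0.125), 4.43 without contralateral cortex 3 and 2.67 with 2 added. The log2 ratio of *C5ar1* to *C3ar1* was -2.57, -1.81 and -2.35 in infarcts and -0.66, -1.34 and -1.45 in contralateral cortices. *C3ar1* exceeded *C5ar1* by more in every infarct than in any contralateral cortex, with a difference of -1.10 (exact *p* = 0.1, adjusted *p* = 0.125).

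The log2 ratio of *C1ra* to *C1s1* was -0.77, -0.24 and -0.36 in infarcts and 0.40, 0.52 and 0.70 in contralateral cortices, a difference of -1.0 (exact *p* = 0.1, adjusted *p* = 0.125). For the summed C1q chains over *C1ra* plus *C1s1*, the log2 ratio was 3.39, 4.16 and 4.0 in infarcts and 5.30, 3.81 and 4.28 in contralateral cortices. These groups overlapped, and the difference of -0.61 (exact *p* = 0.4, adjusted *p* = 0.4) turned to 0.07 when 2 was added to each CPM.

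**Figure D2:**
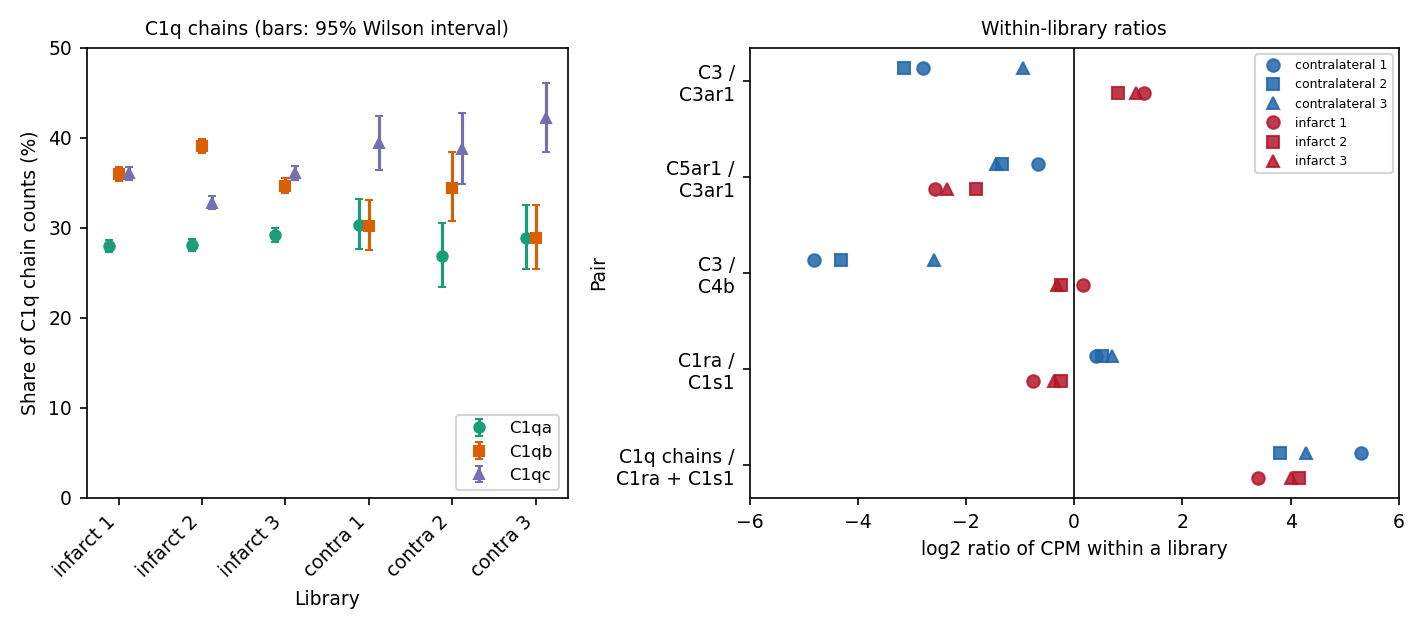
Left, share (%) of each C1q chain in the C1q counts of each library, with bars for the 95% Wilson interval, where the infarct shares of *C1qc* (32.8% to 36.1%) lie below the contralateral ones (38.7% to 42.2%). Right, log2 ratio of CPM within each of 3 infarcts (red) and 3 contralateral cortices (blue) for 5 pairs of complement genes, where the regions overlap only for the C1q chains over *C1ra* plus *C1s1*.

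The wider complement system was described with a list of 57 genes that holds the 9 above. Of the other 48 genes, 28 had enough counts to be tested, 18 were higher in infarcts, 6 were lower and 4 did not pass. The median log2 fold change of these 28 was 2.40, against 0.03 over all tested genes, where 25.7% were higher and 20.9% lower.

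Of 15 genes that initiate the classical and lectin routes, 6 were tested. The 5 described above were higher, and *Masp1*, a protease of the lectin route, was the only gene of the 6 that was lower. It had 2.63, 2.72 and 2.87 CPM in infarcts against 5.48, 5.21 and 7.11 CPM contralaterally, for a log2 fold change of -1.11 (SE 0.25, adjusted *p* = 0.00354) that missed the fold threshold without contralateral cortex 3 (-0.97) and with library totals as the scaling (-0.90). Of the recognition proteins of the lectin route, *Mbl1* had 0 counts in all libraries, and *Mbl2*, *Fcna*, *Fcnb*, *Colec10* and *Colec11* had at most 6 in any library.

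Among 7 components of the core and the alternative route, 5 were tested and 4 were higher, beside 25.7% of all tested genes. These 4 include *C3* and *C4b*, described above. *C2*, which joins C4 in the enzyme that splits C3, had 28.0, 25.3 and 25 CPM in infarcts against 0.992, 0.586 and 0.646 CPM contralaterally, for a log2 fold change of 5.08 (SE 0.26, adjusted *p* = 2.93e-07). *Gm20547*, annotated on the same strand, overlaps 42.8% of the exon bases of *C2*, and reads overlapping several genes were not counted. *Cfp*, encoding properdin, which stabilizes the alternative enzyme, had a log2 fold change of 2.63 (SE 0.30, adjusted *p* = 7.60e-05). Factor B (*Cfb*) had 8, 1 and 11 counts in infarcts and 0 in contralateral cortices and was not tested, with 79.5% of its exon bases under *Gm20547*, and factor D (*Cfd*) had 0 counts in all libraries.

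Of 7 terminal components, which form the membrane attack complex, 4 were tested. *Hc*, encoding C5, had 59, 29 and 50 counts in infarcts and 5, 1 and 0 contralaterally. Its log2 fold change was 4.64 (SE 0.81, adjusted *p* = 1.95e-04). It ranged from 4.25 to 6.17 in the fits that left out a library, and was highest without contralateral cortex 1. *C6* had 284, 136 and 109 counts in infarcts and 0, 1 and 0 in contralateral cortices, so that its level was higher by at least 63.7-fold when each contralateral library was set to 3 counts (adjusted *p* = 2.32e-05). Infarct 1 held the most *C6* counts, and without it the bound was 41.6-fold. *C7* (0.15, SE 0.64) and *C8g* (0.79, SE 0.44) did not pass, with adjusted *p* = 0.852 and 0.143, and *C7* turned to -0.27 without contralateral cortex 3. *C8a*, *C8b* and *C9* had at most 4 counts in any library. A difference in these 3 genes between regions was not detectable at this depth.

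Soluble inhibitors were higher in infarcts for all 5 of the 8 genes that could be tested. *Serping1*, encoding the C1 inhibitor that removes C1r and C1s from C1q, had 877, 505 and 467 CPM in infarcts against 13.1, 9.57 and 12.5 CPM contralaterally. It peaked in infarct 1, as all of the 9 genes except *C5ar1* did. Its log2 fold change was 5.72 (SE 0.26, adjusted *p* = 5.38e-07).

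*Cfi*, encoding factor I, which degrades C3b and C4b, had 54, 46 and 54 counts in infarcts and 0 in all contralateral cortices, and its level was at least 18.1-fold higher with each contralateral library set to 3 counts (adjusted *p* = 3.00e-05). *Clu* (1.01, SE 0.18, adjusted *p* = 9.13e-04) and *Vtn* (1.01, SE 0.24, adjusted *p* = 0.00525), which block the attack complex, were at the fold threshold. *Clu* was below it without infarct 3 (0.92), contralateral cortex 1 (0.96) or contralateral cortex 2 (0.89), and *Vtn* without infarct 1 (0.87), contralateral cortex 1 (0.92) or contralateral cortex 2 (0.83).

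Membrane inhibitors, which protect the surface of cells, were divided. Of 10 genes, 8 were tested, with 3 higher and 5 lower in infarcts. *Cd55* (2.43, SE 0.25, adjusted *p* = 2.16e-05) and *Cr1l* (1.79, SE 0.24, adjusted *p* = 1.30e-04), which act on the C3-splitting enzymes, and *Cd59a* (2.37, SE 0.23, adjusted *p* = 1.64e-05), which blocks the attack complex, were higher. The lower genes include *Csmd1*, *Csmd2*, *Csmd3* and *Susd4*, complement inhibitors that neurons express. *Csmd1* had 31.5, 21.4 and 30.9 CPM in infarcts against 126, 136 and 120 CPM contralaterally, for a log2 fold change of -2.19 (SE 0.17, adjusted *p* = 4.66e-06).

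*Susd4* had 16.1, 30.7 and 47.2 CPM in infarcts against 171, 169 and 183 CPM contralaterally, for a log2 fold change of -2.47 (SE 0.33, adjusted *p* = 4.22e-04). *Csmd2* fell by 2.89 (SE 0.39, adjusted *p* = 4.50e-04) and *Csmd3* by 2.23 (SE 0.34, adjusted *p* = 5.81e-04) on the log2 scale. The 4 genes summed to between 57.7 and 102 CPM in infarcts and between 373 and 401 CPM in contralateral cortices, beside a neuronal marker sum of 910 to 2607 CPM in infarcts and 12626 to 13366 CPM in contralateral cortices, and the part of neuronal content in their values was not tested. *Cd46* (-1.49, SE 0.56, adjusted *p* = 0.0476) passed narrowly and did not pass in 4 of the 6 fits that left out a library, being called only without infarct 1 (-1.04) and without contralateral cortex 3 (-1.77). Genes on the opposite strand overlap 14.2% of its exon bases.

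**Figure D3:**
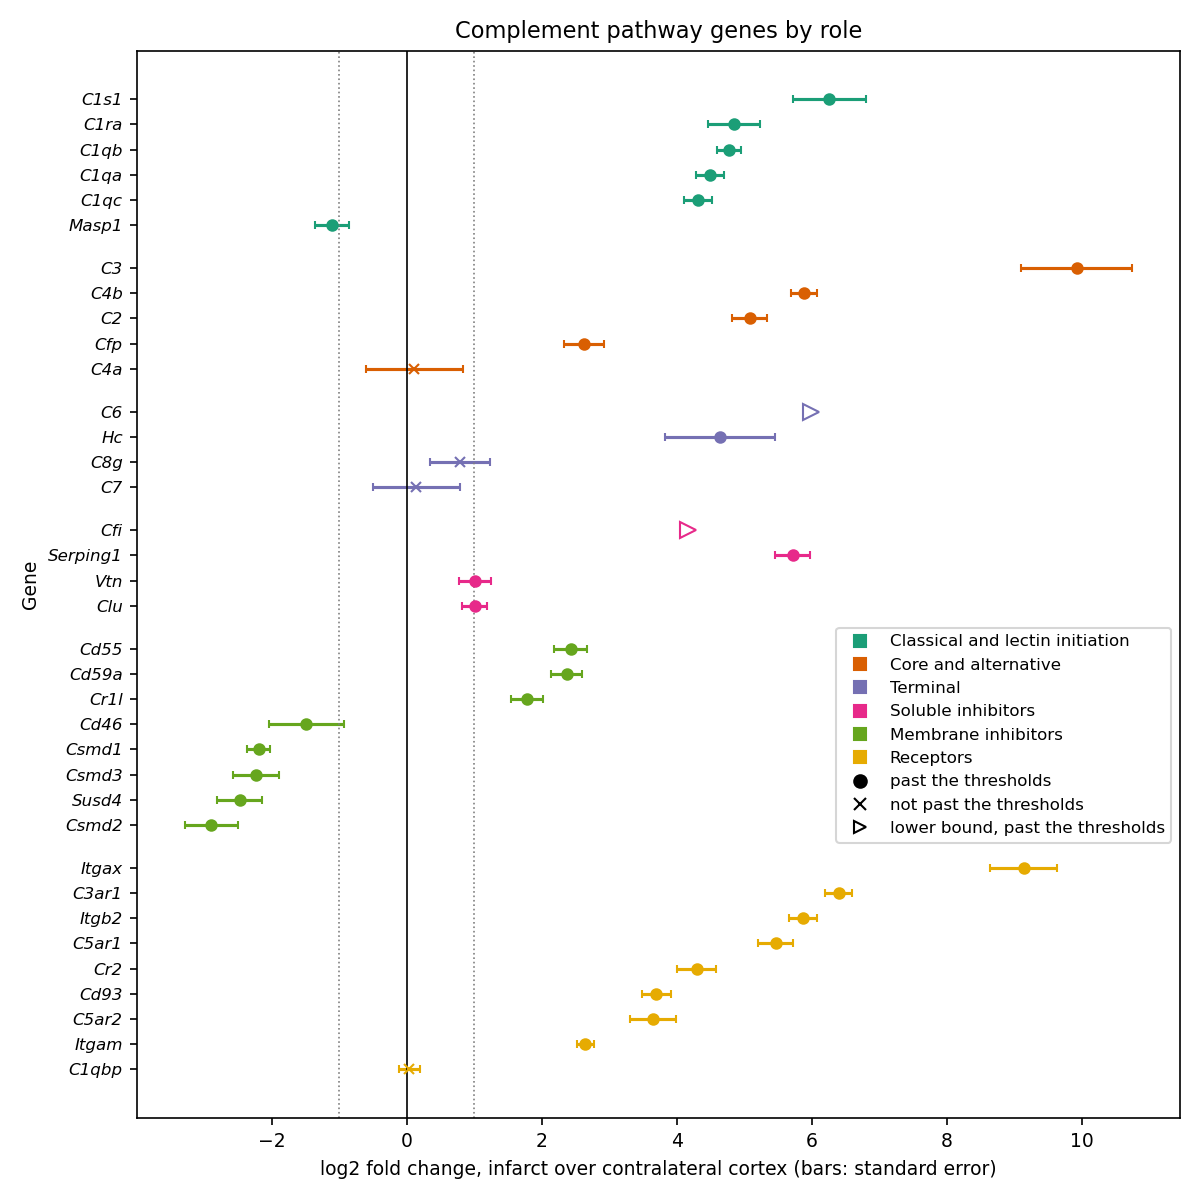
Log2 fold change (infarct over contralateral cortex, bars for the SE) of tested complement genes, colored by role, with crosses for genes that did not pass and open triangles for lower bounds of genes with almost no contralateral counts. Dotted lines mark the fold threshold of 1 in each direction. The soluble inhibitors shown lie at or right of it, and 5 of 8 membrane inhibitors lie left of zero.

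Of 10 receptors for complement fragments, 9 were tested and 8 were higher, beside 25.7% of all tested genes. These 8 include *C3ar1* and *C5ar1*, described above. The integrin chains of complement receptors 3 and 4 on phagocytes were also among the 8. *Itgax* had 432, 295 and 274 CPM in infarcts against 0.627, 0.130 and 1.11 CPM contralaterally, for a log2 fold change of 9.14 (SE 0.50, adjusted *p* = 1.64e-06). *Itgam* was higher by 2.65 (SE 0.13, adjusted *p* = 3.85e-07), with 68.7% of its exon bases shared with *Gm49368*, and their common partner *Itgb2* by 5.88 (SE 0.21, adjusted *p* = 1.64e-07).

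*Cr2*, a receptor of B cells and follicular dendritic cells, had a log2 fold change of 4.30 (SE 0.29, adjusted *p* = 1.25e-06), and *Cd93*, first named as a C1q receptor, 3.70 (SE 0.21, adjusted *p* = 9.16e-07). *C1qbp*, a mitochondrial protein that can bind C1q, had 35.5 ± 2.21 CPM in infarcts against 34.6 ± 4.30 CPM contralaterally (SD, n = 3), with overlapping groups and a log2 fold change of 0.04 (SE 0.16, adjusted *p* = 0.843). *Vsig4*, a macrophage receptor for C3b, had 16, 13 and 8 counts in infarcts and 0 in contralateral cortices and was not tested.

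Proteins of the C1q-domain family that act at synapses were listed as a contrast to the C1q chains, since they share a domain but not the complement role. Of 8 genes, 5 were tested, 1 was higher and 4 were lower. Their median log2 fold change was -2.88, beside -2.98 for the neuronal marker list, where 12 of 12 were lower. The part of neuronal content in these values was not tested. *C1ql3* had 15.2, 27.6 and 23.7 CPM in infarcts against 125, 172 and 119 CPM contralaterally, for a log2 fold change of -2.64 (SE 0.23, adjusted *p* = 1.35e-05). On the opposite strand, *Gm37811* and *Gm37824* overlap 64.2% of its exon bases. *Cbln2* (-4.79, SE 0.41, adjusted *p* = 4.58e-05), *Cbln4* (-4.80, SE 0.65, adjusted *p* = 5.31e-04) and *Cbln1* (-2.88, SE 0.58, adjusted *p* = 0.00148) were also lower. In the fits that left out a library they ranged from -5.47 to -4.44, from -5.52 to -4.23 and from -3.60 to -2.38, respectively. *C1ql1* was higher by 1.92 (SE 0.54, adjusted *p* = 0.0109) and did not pass without contralateral cortex 1 (1.75) or 2 (1.57).

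Most of the cell type marker lists described here had higher sums in infarcts, as did the 9 genes, which summed to 4747, 3805 and 3511 CPM in infarcts and to 83.8, 63.8 and 93.9 CPM in contralateral cortices. Of 12 macrophage markers, 11 were higher, with a median log2 fold change of 7.51 and sums of 9921 to 15488 CPM in infarcts and 58.9 to 80.4 CPM in contralateral cortices. Of 12 microglial markers, 7 were higher and none was lower, with a median of 1.69 and sums of 1448 to 1632 CPM against 416 to 505 CPM. Among the markers that define resting microglia, *Tmem119* was higher by 1.79, whereas *P2ry12* (-0.20) and *Siglech* (0.02) did not pass. The log2 fold changes of the C1q chains (4.32 to 4.77) lay above those of 11 of the 12 microglial markers and beside that of *Trem2* (4.74), and the differences between these genes were not tested.

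B cell and plasma cell markers were higher in 12 of 12 (median 8.47, sums of 1143 to 7481 against 9.98 to 29.4 CPM), T cell markers in 9 of 9 tested (6.84, 274 to 460 against 3.60 to 4.89 CPM), and fibroblast and meningeal markers in 12 of 12 (4.29, 7712 to 9624 against 278 to 372 CPM). Neutrophil markers were higher in 7 of 7 tested of 12 (4.71, 67.7 to 84.0 against 4.75 to 6.64 CPM), with *Elane* at 0 in all libraries and *Ly6g* at 0, 2 and 0 counts in infarcts. Most of the neutrophil sum came from *Csf3r* (44.9 to 53.7 against 4.65 to 5.35 CPM). Astrocyte markers were higher in 3 and lower in 1 of 12 (0.27, 6308 to 8970 against 14573 to 15469 CPM), where 25.7% of all tested genes were called higher. The direction of their sum rested on the glutamate transporter gene *Slc1a2* (2376 to 3922 against 11792 to 12994 CPM, log2 fold change -2.07), since the other 11 markers summed to 3932 to 5048 CPM in infarcts and 2467 to 2793 CPM contralaterally. *Gfap*, an intermediate filament gene of reactive astrocytes, was higher by 4.81. The part of these cell types in the complement values was not tested.

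Endothelial markers were higher in 4 and lower in 1 of 10 (median 0.59), and oligodendrocyte markers were higher in 4 of 10 (0.96). Choroid plexus markers were higher in 4 of 6 tested of 8 (2.10), with *Ttr* at 0, 3 and 3 counts in infarcts and 0 in contralateral cortices. Red blood cell markers were higher in 3 and lower in 1 of 4 tested of 8 (2.52). The liver is the main source of complement in plasma, and none of 10 hepatocyte markers had enough counts to be tested. Their sums were 0.558 to 1.25 CPM in infarcts and 0.313 to 0.461 CPM in contralateral cortices, with *Alb*, *Fga* and *Serpina1a* at 0 counts in all libraries.

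**Figure D4:**
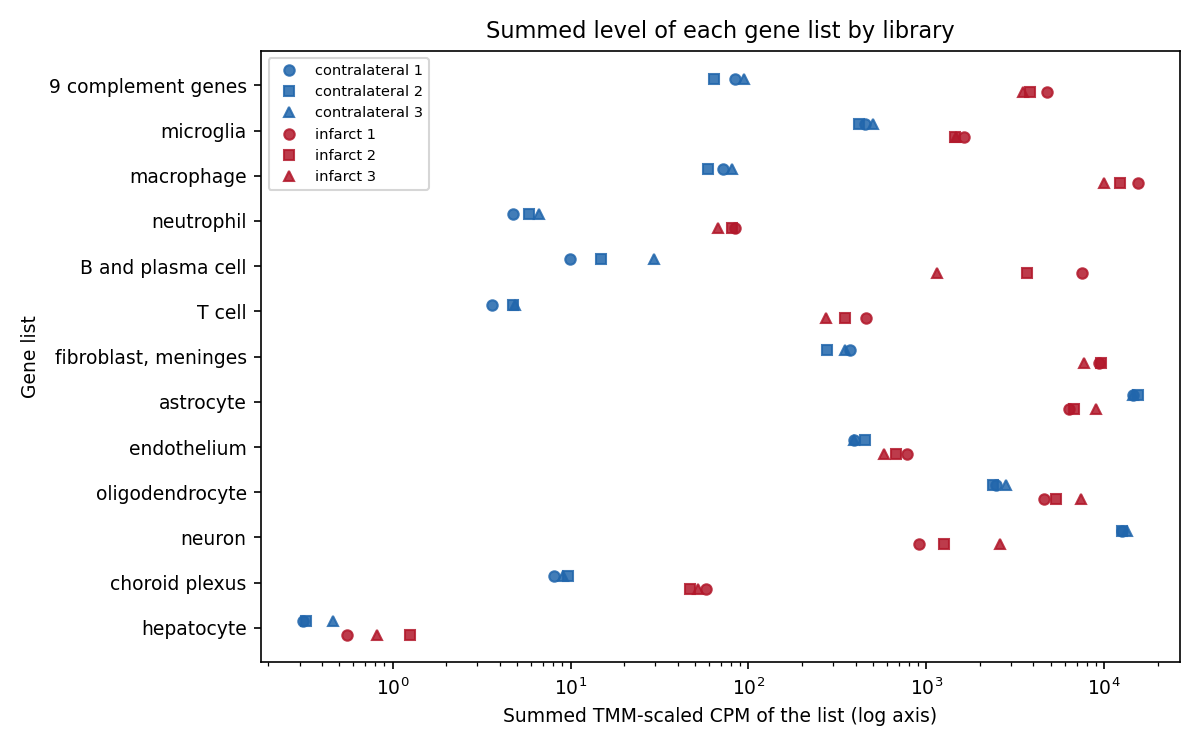
Summed TMM-scaled CPM (log axis) of the 9 complement genes and of 12 marker lists, with 1 point per library for 3 infarcts (red) and 3 contralateral cortices (blue). The complement sum is 3511 to 4747 CPM in infarcts and 63.8 to 93.9 CPM in contralateral cortices. It is higher in infarcts, as are the sums of all plotted marker lists except the neuronal and astrocyte lists.

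The genes with the profile most like each member over the 6 libraries were ranked by the mean absolute difference of log2 CPM after centering on the contralateral mean, among 14382 genes outside the complement lists. This measure mainly picks genes with a similar fold change, since the regions differ far more than the libraries within them. For the mean of the C1q chains these were *Tagln2* (0.072), *Steap3* (0.083) and *Clec4a3* (0.090). For *C4b* they were *Cd300a* (0.087), *Cd84* (0.11) and *Anpep* (0.12), for *C3ar1* *Capg* (0.086), *Lbp* (0.14) and *Dcn* (0.17), and for *C5ar1* *Ptgdr* (0.15), *Runx1* (0.18) and *Syk* (0.19). Candidates averaged at least 10 counts in contralateral cortices, so genes nearly absent there could not be chosen. Examples are *Cd5l* (0, 1 and 8 counts) and *Ms4a1* (0, 3 and 4 counts). Among the candidates left, *C3* had no neighbor as close, with *Gpnmb* at 0.24, *Igkc* at 0.57 and *Lyz2* at 1.0. The part of this filter in the *C3* distances was not tested.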

How the data were processed

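Per the paper's methods and the submitters' processing notes, the authors prepared stranded mRNA libraries, demultiplexed paired reads with bcl2fastq 2.19, trimmed them with Trimmomatic 0.32, aligned them to GRCm38 with STAR 2.5.2b and deposited raw counts per Ensembl gene from htseq-count, without normalization. The 5 entries per file without a gene name were dropped, and 65.7% to 73.4% of all tallied reads remained. Identifiers were matched to GENCODE M21 (45143 matched, 935 did not).

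The main test was that of edgeR 4.0.16 (R 4.3.3), with filterByExpr, TMM and a robust quasi-likelihood fit with region as its only term. *p* values were adjusted over the 15554 tested genes, and SE are those of fitted coefficients. A gene with 3 counts or fewer in each contralateral library was given a lower bound, with those libraries at 3 counts. The alternatives were DESeq2 1.42.0, limma 3.58.1 voom, RLE size factors, library totals, no filter, a minimum of 10 counts in every library, glmTreat, the replicate number as a block, each library left out, and 2 instead of 0.5 added to CPM for ratios, and 2 counts instead of none added to each chain for shares. On counts of 15554 genes simulated from the mean contralateral profile with a single fixed dispersion, edgeR recovered 94.5% of 200 genes changed 4-fold. The real comparison called 25.7% of genes higher and 20.9% lower, so the simulation cannot tell how the scaling behaves under such a shift. Named genes were all members, tested genes of the complement lists (some are not reported here), markers by list, and the 3 nearest profiles among genes averaging at least 10 contralateral counts. The members and lists were chosen with earlier results of these data known. *Tmem119*, *P2ry12*, *Siglech*, *Trem2*, *Slc1a2*, *Gfap* and *Csf3r* were picked after their values were seen. The same holds for *Igkc*, *Gpnmb*, *Cd5l*, *Mrc1* and *Cd68* in contralateral cortices. SciPy 1.17.1, pandas 2.3.3 and matplotlib 3.10.9 under Python 3.11.15 gave the summaries and plots.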

Additional observations from a re-analysis of the deposited data

How the results depend on the processing

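All 9 complement genes were higher in infarcts under every alternative in which they were tested. With a minimum of 10 counts in every library 7 of 9 were called, since *C3* and *C1s1* were then not tested. Library totals in place of TMM raised the median of all log2 fold changes by 0.20 and the share of higher genes among calls from 55.1% to 62.1%. Over all alternatives the complement genes called ranged from 18 to 29 higher (27 as reported, 18 with the minimum of 10 counts) and from 4 to 6 lower (6 as reported, 4 with library totals and with glmTreat). The low contralateral counts of *C3*, *C1ra* and *C1s1* limit the precision of their folds.

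The sample records do not say whether replicate numbers pair the samples. Same-numbered infarcts and contralateral cortices deviated from their group means with correlations of -0.205, 0.111 and 0.0225. For differently numbered ones the correlations were -0.269 to 0.190. With 3 libraries per region, these values cannot decide whether the numbers pair. With the replicate number as a block, 9 of the 9 genes, 27 higher and 5 lower complement genes, and 3945 higher and 3222 lower genes of all tested were called. *Cd46* was the lower gene lost, with a log2 fold change of -1.53.

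Values near 0 changed sign. *C4a* was -0.28 without infarct 2, -0.03 without infarct 3, -0.12 without contralateral cortex 2 and -0.16 without contralateral cortex 3, with a highest value of 0.96 among the fits that left out a library. *C7* ranged from -0.27 to 0.77 and *C1qbp* from -0.039 to 0.14, the latter being -0.0037 without contralateral cortex 1. The log2 ratio of the C1q chains to *C1ra* plus *C1s1* turned from -0.61 to 0.0747 with 2 added to each CPM. In contralateral cortices *C1ra* (0.575 to 1.66 CPM) and *C1s1* (0.313 to 0.846 CPM) each lay below the 2 added, so this ratio depends on the number added. The cause of the other sign changes was not tested.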
